A study of Rattus norvegicus with 53 samples.

Results

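Serum of day-60 DR+/+ rats was compared with autologous serum for its effect on gene expression in blood mononuclear cells. The comparison took 8 of the 53 arrays of the study: the 4 cultures with DR+/+ serum (replicates 1 to 4) and autologous replicates 7 to 10. The DR+/+ cultures were taken by title. Autologous replicates 7 to 10 were used, of 10, because they fall in the same cluster of arrays as the DR+/+ cultures, a choice that rests on measured values over the whole array. The labels name no array run.

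Peripheral blood mononuclear cells (PBMCs) came from healthy male Brown Norway (BN) rats aged 180 days and were cultured for 6 h with 20% plasma, which the labels also call serum. In the autologous cultures the serum was the cell donor's own, from day 180. In the DR+/+ cultures it came from 60-day-old DR+/+ rats of the BB (BioBreeding) colony, with no added agent. The autologous reference differs from DR+/+ serum in strain, in the age of the serum donor and in being the cells' own serum, and these cannot be told apart. Beside it stand 12 cultures with serum of another BN rat (allogeneic replicates 4 to 15, day 180), 4 with serum of day-60 DRlyp/lyp rats, 4 with that serum plus IL-1RA, which blocks the interleukin-1 receptor, and 4 with autologous serum plus IL-1B, an interleukin-1 ligand. Nothing in the labels tells if the replicates of a group are different animals, so p-values measure the spread between these samples, which may be technical.

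BB rats are a model of autoimmune diabetes. Rats of the DRlyp/lyp line are lymphopenic and become diabetic, whereas DR+/+ rats carry the normal allele at the lymphopenia locus and do not develop spontaneous disease. Culturing healthy leukocytes with serum is a way to read soluble factors in it, because monocytes and lymphocytes answer cytokines, lipids and oxidants by changing transcription. Monocytes are the PBMCs most ready to make chemokines, matrix proteins and scavenging receptors. The transcription factor NRF2 turns on antioxidant enzymes, and glucocorticoids turn on a further set of genes that includes Rasd1.

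With DR+/+ serum, single genes of monocytes, of extracellular matrix and of detoxification were higher than with autologous serum, 2 in each of those lists, and the Ras-related gene Rasd1 was lower. The aldo-keto reductase Akr1b8 was higher by 2.81 on the log2 scale (SE 0.47), fibronectin (Fn1) by 2.63 (6.19-fold), the monocyte chemoattractant Ccl2 by 2.45 (5.45-fold) and the macrophage pore protein gene Mpeg1 by 2.23 (4.69-fold), with 4 cultures a group. Rasd1 was 4.28-fold lower. Of 14217 genes, each represented by its brightest probe set, 36 were called higher (0.253%) and 6 lower (0.0422%), together 0.295%, by limma at an adjusted p under 0.05. A further 18 genes were called only through another of their probe sets, 15 higher and 3 lower. Over the 31042 probe sets tested, 75 were higher (0.242%) and 9 lower (0.0290%), or 0.271% in all, and a second quantile normalisation gave 63 higher and 17 lower. That normalisation kept 59 of the 84 called probe sets and 29 of the 42 called genes. Fcgr1a, Fnip2, Hivep1, Traf3 and Dhx58 were among those that lost the call. The 4 DR+/+ arrays lay wholly above or below the 4 autologous arrays for each of the 42 called genes, and over all genes 2.81% lay wholly above and 3.21% wholly below. The median difference over all genes was -0.055 (log2).

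**Figure D1:**
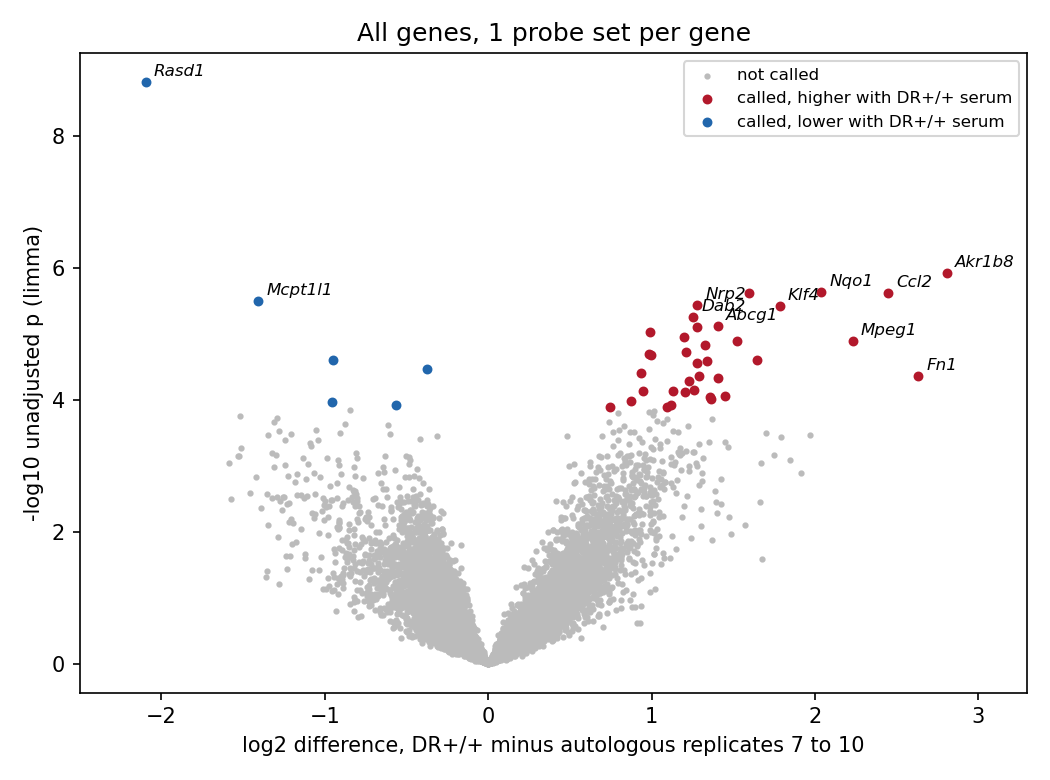
Log2 difference of each of the 14217 genes (DR+/+ minus autologous replicates 7 to 10, horizontal) against -log10 of its unadjusted limma p (vertical). The 36 genes called higher are red and the 6 called lower are blue; Rasd1 has the smallest p, and Akr1b8 has the largest increase.

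The count of calls rests on how the spread was estimated. The fit used 32 arrays in 6 groups, which share one estimate of the spread, and when the 8 arrays were fitted alone no probe set was called by limma (3059 had an unadjusted p under 0.05, against 4150 in the 32-array fit). Leaving out autologous replicate 7 left 5 called probe sets, without replicate 9 there were 298, without replicate 10 there were 135, without replicate 8 there were 45, and without DR+/+ replicate 1 there were 44. Rasd1, Akr1b8 and Ccl2 passed whichever of the 8 arrays was left out. Mpeg1, Nqo1, Klf4, Abcg1, Dab2 and Mcpt1l1 lost the call without autologous replicate 7 and in no other of these fits (adjusted p = 0.0965 to 0.118). Elk3 and Mdfic lost it in 2 of the 8 fits, Mmp14 and Pla2r1 in 3, Fn1, Ccr1, Egr1 and Parm1 in 4, Traf3 in 5, Fcgr1a, Fnip2, Hivep1 and Slc24a4 in 6 and Dhx58 in 7, with adjusted p up to 0.334.

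**Figure D2:**
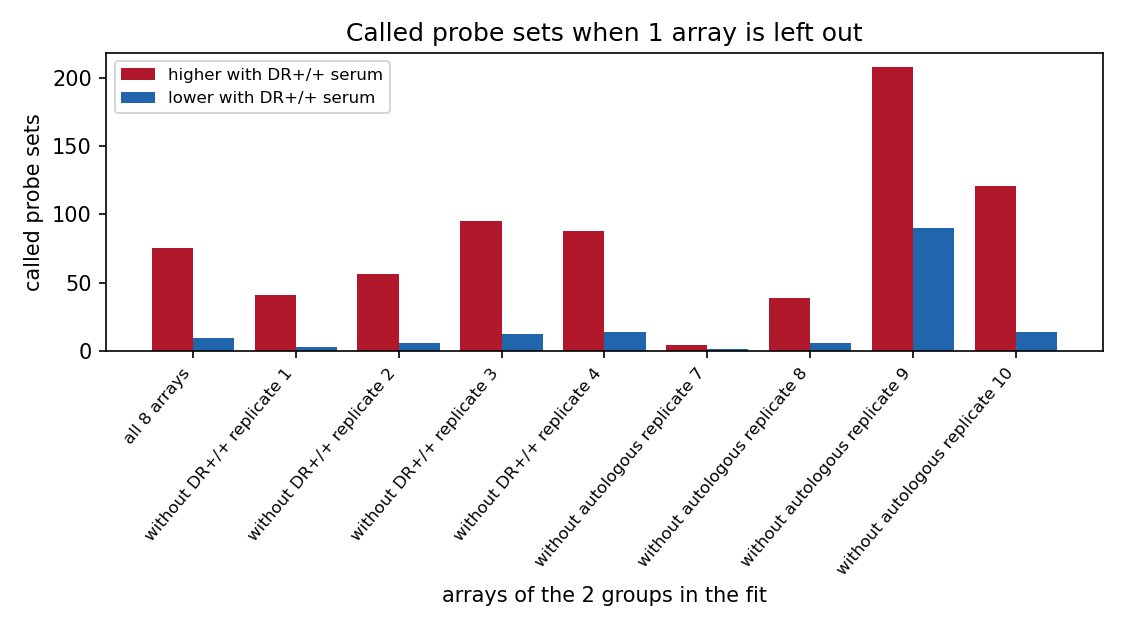
Number of called probe sets (vertical, bars from 0) with all 8 arrays and with each array left out in turn (horizontal), split into higher (red) and lower (blue) with DR+/+ serum. The count falls from 84 to 5 without autologous replicate 7 and rises to 298 without autologous replicate 9.

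DR+/+ replicate 4 stood apart from the other arrays. It correlated with DR+/+ replicates 1 to 3 at r between 0.927 and 0.940 over all probe sets, where those 3 correlated among themselves at 0.980 to 0.990. Its summed neutrophil markers were the highest of the 8 arrays (log2 10.30, against 7.45 to 8.69 in the other DR+/+ arrays), and its summed erythroid markers the lowest (14.48, against 15.07 to 15.09). The difference between its actin 3′ and 5′ probe sets, a measure of RNA integrity, was 1.13 (log2), against 2.37 to 2.83 in the other DR+/+ arrays and 2.37 to 2.78 in the autologous ones, and its part in the results was not tested. Without this array 47 genes were called higher (0.331%) and 4 lower (0.0281%), and 27 of the 42 genes stayed called. The values below are given with it, and for named genes whose call changes also without it, apart from the immediate early factors.

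Extracellular matrix genes held some of the largest increases. Fn1 encodes fibronectin, which monocytes secrete and bind. Its log2 levels were 9.71, 11.20, 10.35 and 9.62 in DR+/+ replicates 1 to 4, and 7.04, 8.97, 7.66 and 6.69 in autologous replicates 7 to 10. The lowest DR+/+ culture was above the highest autologous one, and the difference was 2.63 (SE 0.56, adjusted p = 0.0271). Mmp14, a membrane-anchored matrix metalloproteinase, read 7.30, 8.39, 7.55 and 6.16 with DR+/+ serum and 5.26, 6.11, 5.75 and 5.68 with autologous serum. The groups were separated only narrowly, by DR+/+ replicate 4, and the difference of 1.65 became 2.04 without it. A second Mmp14 probe set, dimmer, gave 0.014.

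Of the 18 measured matrix and adhesion genes, Fn1 and Mmp14 rose and none fell, with a list median of 0.19. Tgfbi (1.91, adjusted p = 0.104) and Gpnmb (1.57, adjusted p = 0.195) did not pass. The proteoglycan gene Vcan reached 1.79 (adjusted p = 0.0717) by its brightest probe set, and another of its probe sets was called at 3.22 (SE 0.62, adjusted p = 0.0133). Vcan was thus higher by both, and passed by one of them.

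Among chemokines, Ccl2 alone passed. Ccl2 draws CCR2-bearing monocytes out of the blood. It read 6.95, 7.75, 7.01 and 9.21 with DR+/+ serum and 5.57, 6.34, 4.63 and 4.59 with autologous serum. Replicate 4 was the highest DR+/+ culture, the groups did not overlap, and the difference was 2.45 (SE 0.43, adjusted p = 0.0083), or 1.95 without replicate 4 (adjusted p = 0.0352). The other 10 CC chemokine genes measured lay between -0.38 and 0.24, and the list median was -0.096. Its neighbour in function Ccl7, a further CCR2 ligand, differed by 0.015.

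Ccr1, a receptor for other CC chemokines, was the 1 gene called of 8 chemokine receptors. Its levels were 6.24, 7.16, 7.09 and 6.76 with DR+/+ serum and 5.62, 6.04, 5.32 and 4.91 with autologous serum. The groups did not overlap, and the difference was 1.34 (SE 0.27, adjusted p = 0.0198). The median of the 8 receptors was -0.18, with Ccr2 at -0.23 and Cxcr3 at -0.62, neither of which passed.

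No inflammatory cytokine or CXC chemokine passed, of 19 measured (median -0.076). Cxcl2, a neutrophil attractant, differed by 1.31 (adjusted p = 0.114), with autologous replicate 7 at 8.68, inside the DR+/+ range of 8.40 to 9.36. Il12b, a subunit of interleukin-12, differed by -0.44 (adjusted p = 0.0986). In the interleukin-1 system, 0 of 10 genes passed (by unadjusted p Il1r1, at -0.42, and the decoy receptor Il1r2, at -1.20, came nearest), and Il1b differed by 0.60 (adjusted p = 0.386).

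Monocyte identity genes moved unevenly. Mpeg1, whose product forms pores in the membranes of engulfed bacteria, read 8.86, 9.52, 9.07 and 9.97 with DR+/+ serum and 6.64, 7.83, 7.05 and 6.98 with autologous serum. Each DR+/+ culture was above each autologous one, and the difference was 2.23 (SE 0.44, adjusted p = 0.0135). A second Mpeg1 probe set, close to the lower end of the array's range, gave -0.23 and did not pass. Fcgr1a, the high-affinity receptor for IgG, differed by 1.10 (adjusted p = 0.0479), and by 0.79 without DR+/+ replicate 4 (adjusted p = 0.111), which held the highest value.

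Of 19 monocyte and macrophage genes, Mpeg1 and Fcgr1a rose, none fell, and the median was 0.23. The lipopolysaccharide co-receptor Cd14 read 8.52, 9.38, 9.38 and 8.00 with DR+/+ serum and 6.81, 7.85, 7.31 and 6.51 with autologous serum. These ranges did not overlap either, yet the difference of 1.70 missed the threshold (adjusted p = 0.0675). It passed without DR+/+ replicate 4, at 1.97 (adjusted p = 0.0428). Adgre1 (-0.36), Itgax (-0.41) and Ctss (-0.42) had negative differences that did not pass.

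The summed level of 4 monocyte markers (Cd14, Csf1r, Cd68 and Mpeg1) was 10.08 to 10.78 (log2 of the sum) in the DR+/+ cultures and 8.58 to 9.42 in the autologous ones, without overlap, and 1 of the 4 was called. Mpeg1 (mean 9.35 against 7.12) and Cd14 (8.82 against 7.12) weighed most in the DR+/+ sum, which is thus not separate from the Mpeg1 call. Csf1r and Cd68 differed by 0.72 and 0.80 and did not pass. In a mixed culture more cells of a type and more RNA per cell cannot be told apart, and the part of monocyte number in these results was not tested. Summed T-cell markers overlapped (10.63 to 11.97 against 10.60 to 12.03), as did B-cell markers (9.96 to 11.005 against 10.38 to 11.09) and natural killer cell markers (10.85 to 11.63 against 10.91 to 11.85). Erythroid markers (14.48 to 15.09 against 15.04 to 15.10) and neutrophil markers (7.45 to 10.30 against 7.73 to 8.65) overlapped too. Of the 4 B-cell markers 2 had a named probe set, and the natural killer cell marker Ncr1 was at 3.98 to 4.99 over the 8 arrays.

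Platelet genes lay lower as a list. Of 15 measured, 14 differences were below 0 and the median was -0.90, beside -0.055 for all genes, but none passed. Mmrn1, a platelet granule protein, came closest, with 7.26, 7.33, 7.72 and 7.43 in DR+/+ cultures against 9.42, 9.21, 8.11 and 9.08 (difference -1.52, adjusted p = 0.0555). Gp5, a part of the von Willebrand factor receptor, differed by -1.22 (adjusted p = 0.107), with DR+/+ replicate 4 at 5.26 far below the others. Summed platelet markers were 13.80 to 14.25 in DR+/+ and 14.01 to 14.67 in autologous cultures and overlapped. That sum is mostly Pf4 (mean 13.59 against 13.68). The other markers (Ppbp, Itga2b, Gp5, Gp9, Mmrn1, Vwf and Treml1) differed by -0.94 to -1.52, and none passed. Without replicate 4 the list median was -0.64.

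Akr1b8 and Nqo1 are both detoxifying enzymes and textbook NRF2 targets. Akr1b8, which reduces aldehydes, read 8.74, 8.73, 7.86 and 9.49 with DR+/+ serum and 6.40, 7.05, 5.25 and 4.88 with autologous serum. The groups did not overlap, and the difference of 2.81 (SE 0.47, adjusted p = 0.0074) was the largest over all genes by brightest probe set. Nqo1, which reduces quinones, read 8.25, 8.99, 8.34 and 8.68 against 5.89, 7.46, 6.42 and 6.34. Here too the lowest DR+/+ culture exceeded the highest autologous one, by a mean difference of 2.04 (SE 0.36, adjusted p = 0.0083).

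The remaining NRF2 targets did not follow as a group. Of 21 measured, Akr1b8 and Nqo1 rose and none fell, and the median was 0.065, the value of Gclm. Haem oxygenase (Hmox1) differed by 1.13 (adjusted p = 0.0665), and by 1.28 without DR+/+ replicate 4 (adjusted p = 0.0462). The cystine transporter Slc7a11 differed by 1.12 (adjusted p = 0.0859). Both subunits of the enzyme that starts glutathione synthesis were near 0, Gclc at 0.027 and Gclm at 0.065, and the glutathione transferase Gstp1 was at -0.74 (adjusted p = 0.433).

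**Figure D3:**
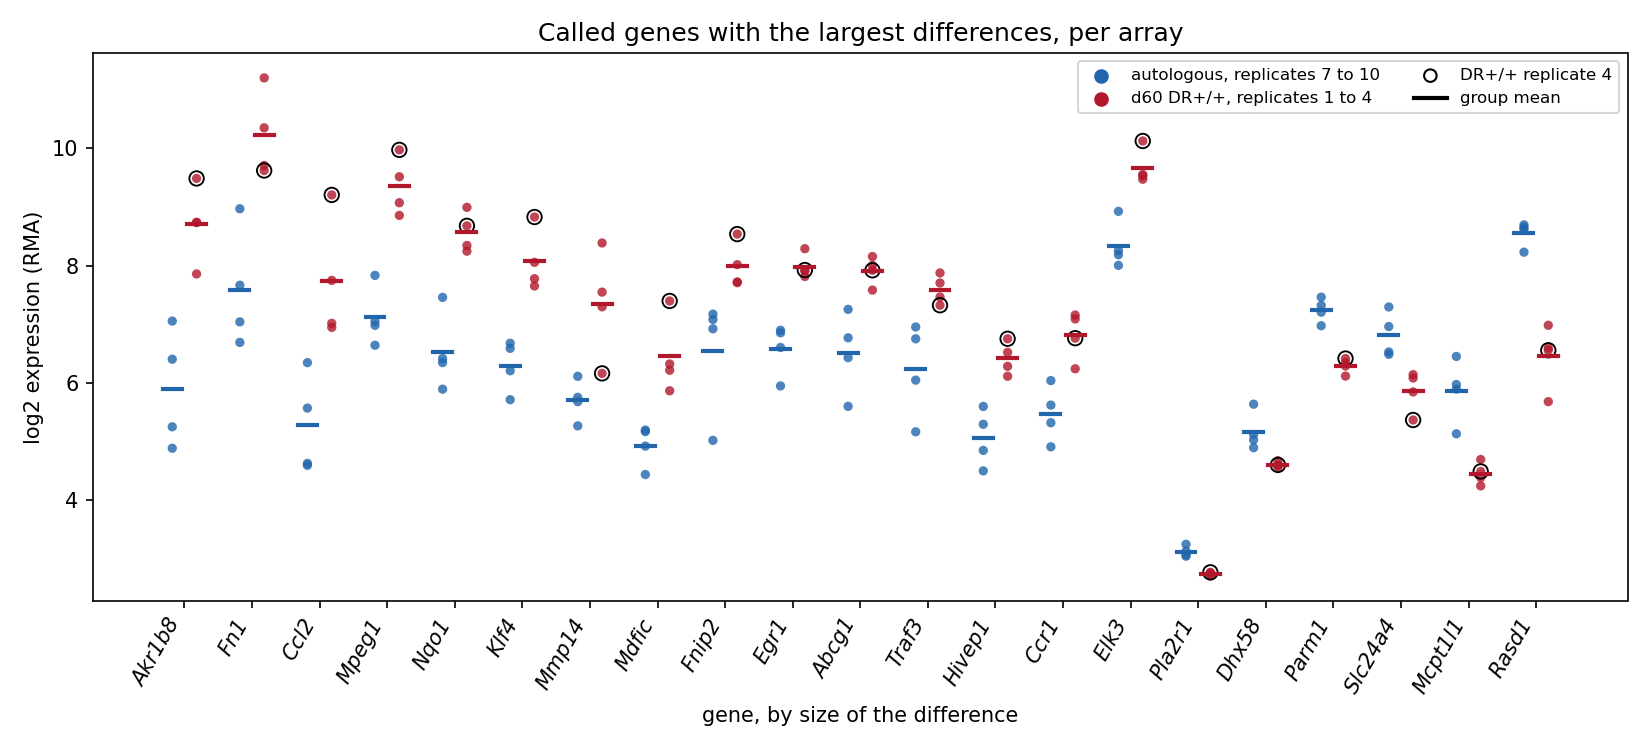
Log2 expression (vertical) of the 15 called genes with the largest increase and the 6 called lower, in each autologous (blue) and DR+/+ (red) array, with group means as bars and DR+/+ replicate 4 ringed. The 2 groups do not overlap for any gene shown; the narrowest gap for Mmp14 is set by replicate 4.

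Rasd1 had the smallest p of all genes. It encodes a small Ras-like G protein first described as induced by dexamethasone, a synthetic glucocorticoid. Its levels were 6.98, 5.68, 6.59 and 6.55 in the DR+/+ cultures and 8.62, 8.23, 8.69 and 8.65 in the autologous ones. The highest DR+/+ value was below the lowest autologous value, and Rasd1 fell by 2.10 (SE 0.25, adjusted p = 4.65e-05). Without DR+/+ replicate 4 the difference was -2.13 (adjusted p = 0.0002). It is represented by 1 probe set.

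The other glucocorticoid-responsive genes did not pass. Of 15 measured, Rasd1 fell, none rose, and the median was -0.13. Tsc22d3, which encodes the glucocorticoid-induced leucine zipper, differed by -0.72 (adjusted p = 0.318). Fkbp5, a co-chaperone of the glucocorticoid receptor, differed by -0.24 (adjusted p = 0.781), and Dusp1, a phosphatase of MAP kinases, by -0.14.

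The promoters of Rasd1 and of the NRF2 targets were read for matches to known motifs, since Akr1b8 and Nqo1 moved and Gclm did not. RefSeq promoters (GRCr8) were given for 33 of the 42 called genes, and the 250 bases before each start were searched on both strands. The letters TGACNNNGC (NRF2 element) matched 4 of 28 promoters of genes called higher (14.3%), beside 12.3% of 11733 promoters of the genes measured, 10.1% of all 33469 promoters and 6 of 19 promoters of the NRF2 list. The other motifs were AP-1 (TGANTCA, 4.84% of promoters of the genes measured and 6.34% of all), the glucocorticoid element (ACANNNTGT, 3.72% and 5.81%), the NF-kappaB site by name (21.6% and 16.4%) and the core of the cAMP response element (TGACG, 25.8% and 18.2%, added after the values were seen). TGACG can overlap the NRF2 letters, and the NF-kappaB site can match both strands at 1 place. A match describes letters only. The 150 bases before the start follow for Rasd1 (chr10:45267683-45267832, minus strand), Akr1b8 (chr4:63964271-63964420, plus strand) and Nqo1 (chr19:52220268-52220417, minus strand), and 180 bases for Gclm (chr2:213031955-213032134, plus strand), with motif matches in capitals.
Rasd1: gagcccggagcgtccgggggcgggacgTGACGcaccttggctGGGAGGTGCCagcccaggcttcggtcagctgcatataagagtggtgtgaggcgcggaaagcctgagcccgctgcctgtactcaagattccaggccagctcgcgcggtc
Akr1b8: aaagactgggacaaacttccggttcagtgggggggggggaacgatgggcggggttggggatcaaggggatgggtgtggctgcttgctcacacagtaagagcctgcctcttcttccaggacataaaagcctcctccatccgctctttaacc
Nqo1: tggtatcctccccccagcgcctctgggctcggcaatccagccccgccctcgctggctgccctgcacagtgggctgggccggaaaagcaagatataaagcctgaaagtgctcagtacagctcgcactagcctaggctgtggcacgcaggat
Gclm: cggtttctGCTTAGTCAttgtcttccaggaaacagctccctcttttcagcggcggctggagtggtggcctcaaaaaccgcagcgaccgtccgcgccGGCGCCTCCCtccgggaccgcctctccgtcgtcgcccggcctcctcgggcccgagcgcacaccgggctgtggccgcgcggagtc
Rasd1 held the TGACG letters 123 bases before the start and an NF-kappaB match at 108. Gclm, which did not pass, held the NRF2 letters on the minus strand at 172 and an NF-kappaB match at 84. None of the 5 motifs matched in the 250 bases searched of Akr1b8 or Nqo1, whose differences were 2.81 and 2.04. Bases farther upstream were not searched, so this does not tell whether either gene has an NRF2 element.

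Transcription factors of the early response were higher in part. Klf4, a Kruppel-like factor of the monocyte lineage, read 7.65, 8.06, 7.78 and 8.83 with DR+/+ serum and between 5.71 and 6.67 with autologous serum. The groups were fully separated, and the difference was 1.78 (SE 0.32, adjusted p = 0.0085). Egr1, an immediate early zinc finger factor, read 7.91, 7.81, 8.29 and 7.92 against 5.95, 6.60, 6.85 and 6.90. All DR+/+ values were higher, by a mean of 1.41 (SE 0.30, adjusted p = 0.0280).

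Of the 19 immediate early and Kruppel-like factors measured, Klf4 and Egr1 rose and none fell, 15 differences were above 0, and the median was 0.32. Without DR+/+ replicate 4, 3 were called higher, Klf4 and Egr1 among them. The values below are those with all arrays. Fos differed by 1.97, more than either, and did not pass (adjusted p = 0.0703): its DR+/+ values ran from 8.32 to 10.01 and its autologous values from 6.88 to 7.36. Klf2, a factor of resting lymphocytes, differed by 1.35 (adjusted p = 0.0757). The Nr4a genes lay between -0.16 and 0.19.

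Further regulators were called outside that list. Elk3, an ETS factor that represses serum response genes, read 9.53, 9.55, 9.47 and 10.13 against 8.18, 8.00, 8.93 and 8.26 (difference 1.33, adjusted p = 0.0150), with no overlap. Its other 3 probe sets gave 0.55, 0.26 and -0.19 and did not pass. Hivep1, a zinc finger protein that binds NF-kappaB-like enhancers, differed by 1.36 (adjusted p = 0.0410), and by 1.25 without DR+/+ replicate 4 (adjusted p = 0.0855). Runx1, a factor of blood development, rose by 0.99 with SDs of 0.13 and 0.24 (n = 4 each, adjusted p = 0.0187). Traf3, an adaptor that restrains non-canonical NF-kappaB signalling, differed by 1.36 (adjusted p = 0.0427). The NF-kappaB list itself, by brightest probe sets, had 0 of 16 called, with a median of 0.094. Without DR+/+ replicate 4 the median was 0.41, and 1 gene was called. Ier3, a target of that pathway, was that gene: it differed by 0.94 (adjusted p = 0.127), and by 1.22 without that array (adjusted p = 0.0449). Another probe set of the NF-kappaB gene Bcl3 was called at 1.33 (adjusted p = 0.0373), while its brightest gave -0.16.

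Lipid efflux and uptake genes were called singly. Abcg1 exports cholesterol to lipoproteins and is a target of the liver X receptor. It read 8.15, 7.58, 8.00 and 7.92 with DR+/+ serum and 5.60, 6.43, 7.25 and 6.77 with autologous serum. The groups did not overlap, and the difference was 1.40 (SE 0.27, adjusted p = 0.0119), while 2 dimmer Abcg1 probe sets gave 0.33 and -0.22. Its partner Abca1 reached 0.89 (adjusted p = 0.0666) by the brightest probe set and 1.64 (adjusted p = 0.0074) by another. Of 19 liver X receptor and lipid genes Abcg1 rose, none fell, and the median was -0.054.

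Dab2, a clathrin adaptor of endocytosis, was the 1 called gene of 17 in the endocytosis and lysosome list (median 0.048). It read 6.88, 6.41, 7.01 and 6.77 against 4.95, 5.81, 5.56 and 5.74. All 4 DR+/+ cultures were above all 4 autologous ones, with a difference of 1.25 (SE 0.23, adjusted p = 0.0101).

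Other called increases were in genes of varied function. Nrp2, a co-receptor for semaphorins and VEGF, rose by 1.28 (adjusted p = 0.0085), and Sema4a, a semaphorin, by 1.23 (adjusted p = 0.0311). Csf2ra, the GM-CSF receptor alpha chain, rose by 0.99 (adjusted p = 0.0131). Tsc1, which restrains the growth kinase complex mTORC1, rose by 1.20 (adjusted p = 0.0133), and Zfp36l1, which promotes decay of AU-rich mRNAs, by 1.13 (adjusted p = 0.0376). Without DR+/+ replicate 4 Zfp36l1 differed by 1.04 (adjusted p = 0.0734). These genes and the others not named among the largest were between 0.74 and 1.29, apart from 1 unnamed locus at 1.59. They fall outside the naming rule and were chosen after their values were seen. Fnip2, a folliculin-binding protein, differed by 1.45 (adjusted p = 0.0403), with autologous replicate 7 at 5.02 and the other 3 at 6.92 to 7.17. Without DR+/+ replicate 4 it differed by 1.27 (adjusted p = 0.0940). Mdfic, at 1.52 (adjusted p = 0.0135), differed by 1.20 without DR+/+ replicate 4 (adjusted p = 0.0533). Its other probe set gave 0.16 and was the brighter of them over the 32 arrays fitted, though not over all 53, by which probe sets were chosen.

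Beside Rasd1, 5 genes were called lower. Mcpt1l1, a mast cell protease-like gene of a family with near-identical copies, read 4.24, 4.69, 4.38 and 4.49 with DR+/+ serum and 6.45, 5.97, 5.13 and 5.89 with autologous serum. The groups did not overlap, and Mcpt1l1 fell by 1.41 (SE 0.25, adjusted p = 0.0085). Parm1, a mucin-like membrane protein, read 6.29, 6.34, 6.11 and 6.41 against 7.32, 7.46, 6.97 and 7.20, without overlap (difference -0.95, adjusted p = 0.0198). The sodium-calcium exchanger Slc24a4 fell by 0.96 (adjusted p = 0.0442), and differed by -0.79 without DR+/+ replicate 4 (adjusted p = 0.101). Dhx58, a cytosolic RNA sensor, fell by 0.56 (adjusted p = 0.0471). Without DR+/+ replicate 4 its adjusted p was 0.0683, and 2 other Dhx58 probe sets gave -0.14 and -0.056. Pla2r1, a phospholipase receptor, fell by 0.38 from a level of 3.12, near the bottom of the array's range (adjusted p = 0.0247). By a probe set other than the brightest, Crem (-1.28), Crispld2 (-0.89) and Xiap (-0.47) were also called lower. Their brightest probe sets gave -0.68, -0.46 and 0.43 and did not pass.

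**Figure D4:**
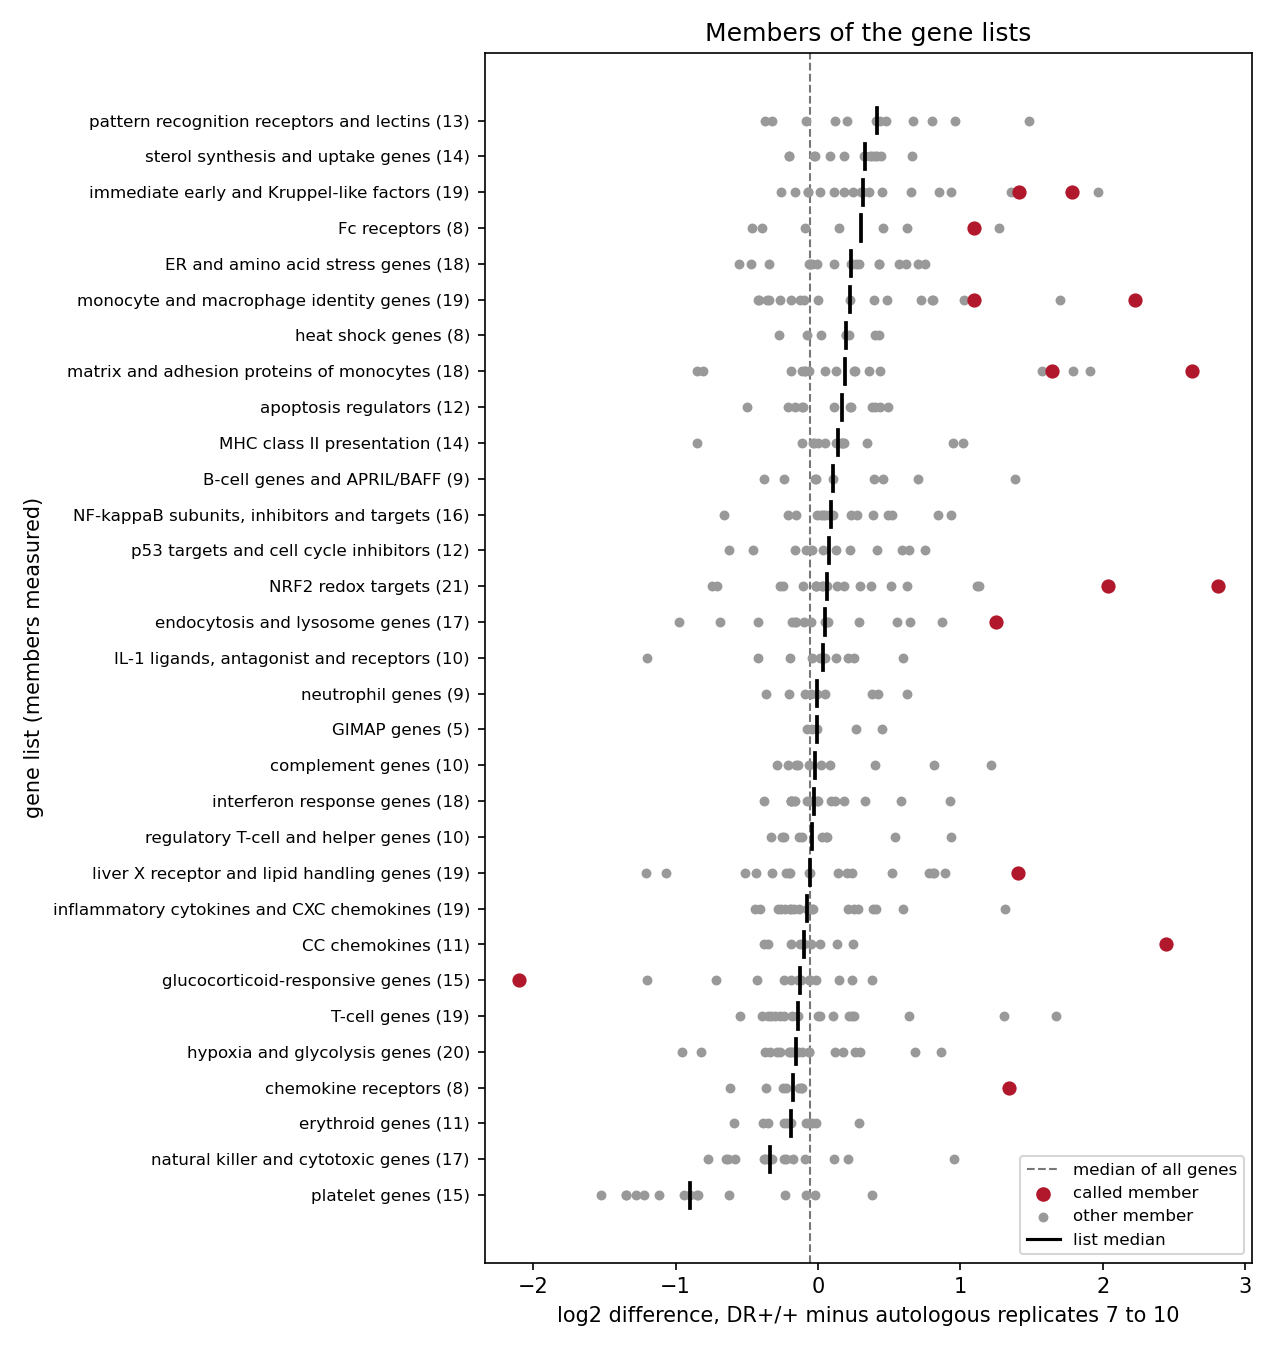
Log2 difference (DR+/+ minus autologous, horizontal) of each measured member of 31 gene lists (vertical, number measured in brackets), with called members in red, list medians as black bars and the median of all genes, -0.055, dashed. Rasd1 and Akr1b8 are the most extreme members shown; platelet genes have the lowest median, -0.90, and none called.

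Lymphocyte and antigen presentation genes did not pass. Of 19 T-cell genes none was called and the median was -0.14, or 0.16 without DR+/+ replicate 4. Tcf7, a T-cell transcription factor, differed by 1.30 (adjusted p = 0.165). Of 17 natural killer and cytotoxic genes none was called and the median was -0.34, with the granule protease Gzmb at -0.63 (adjusted p = 0.0857). The class II transactivator Ciita came close, at 9.65, 8.99, 9.16 and 9.13 against 8.29, 7.84, 8.40 and 8.34 (difference 1.02, adjusted p = 0.0516). Its ranges did not overlap, and the 14 class II genes had a median of 0.14 and 0 called. Interferon response genes (0 of 18, median -0.031), GIMAP genes (0 of 5, median -0.010), B-cell genes (0 of 9, median 0.10), erythroid genes (0 of 11, median -0.19) and neutrophil genes (0 of 9, median -0.0095) had no called member.

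Stress and metabolic lists held no called member either. Their medians were 0.33 for 14 sterol synthesis genes, 0.23 for 18 endoplasmic reticulum and amino acid stress genes, 0.20 for 8 heat shock genes, 0.17 for 12 apoptosis regulators, 0.080 for 12 p53 targets and -0.15 for 20 hypoxia and glycolysis genes. Vegfa, an angiogenic factor, came nearest, at 0.86 (adjusted p = 0.0857). Pattern recognition receptors had the highest median of the 31 lists, 0.41, with 0 of 13 called and Tlr8 at 0.97 (adjusted p = 0.140). Without DR+/+ replicate 4 their median was 0.18, and the immediate early factors had the highest, 0.48. In the complement list 0 of 10 passed (median -0.023), and the anaphylatoxin receptor C5ar1 was at 1.22 (adjusted p = 0.140). Among 8 Fc receptors Fcgr1a alone passed (median 0.30), and regulatory T-cell and helper genes had 0 of 10 called (median -0.043).

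Medians of other lists also moved when DR+/+ replicate 4 was left out. Besides the T-cell genes, those of GIMAP (0.18), hypoxia and glycolysis (0.017) and liver X receptor genes (0.079) turned positive, and erythroid genes came to -0.0061. Higher medians were reached by monocyte (0.36), B-cell (0.35), apoptosis (0.32), class II (0.26) and endocytosis genes (0.086). Lower ones were reached by matrix (0.084), Fc receptor (0.19), heat shock (0.096), NRF2 (0.042), CC chemokine (-0.20), inflammatory cytokine (-0.11), regulatory T-cell (-0.11), neutrophil (-0.22) and complement genes (-0.26). The all-gene median without it was -0.068.

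The called genes fell into more than one pattern across the other sera. Akr1b8 averaged 8.70 ± 0.67 (SD, n = 4) with DR+/+ serum, 8.63 ± 0.44 (n = 4) with DRlyp/lyp serum and 8.72 ± 0.63 (n = 4) with DRlyp/lyp serum plus IL-1RA. It averaged 5.90 ± 1.01 (n = 4) with autologous serum, 5.82 ± 0.53 (n = 4) with added IL-1B and 5.42 ± 0.81 (n = 12) with allogeneic BN serum. The BB rat sera thus lay together above the BN sera, with the lowest BB culture (7.86) above the highest BN one (7.51). Ccl2 was split in the same way, at 7.73 ± 1.05, 7.48 ± 0.54 and 7.30 ± 0.35 with the BB rat sera and 5.28 ± 0.84, 5.13 ± 0.68 and 5.11 ± 0.58 with the BN sera.

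Rasd1 did not follow the BB rat sera. It averaged 6.45 ± 0.55 (SD, n = 4) with DR+/+ serum, against 8.24 ± 0.13 with DRlyp/lyp serum, 8.24 ± 0.21 with added IL-1RA, 8.55 ± 0.22 with autologous serum and 8.67 ± 0.31 with added IL-1B (n = 4 each), and 8.46 ± 0.41 (n = 12) with allogeneic serum. The highest DR+/+ culture (6.98) was below the lowest of the other 28 (7.75). Klf4 averaged 8.08 ± 0.53 with DR+/+ serum, 7.21 ± 0.46 with DRlyp/lyp serum and 6.29 ± 0.44 with autologous serum (n = 4 each), and DR+/+ and DRlyp/lyp cultures overlapped.

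**Figure D5:**
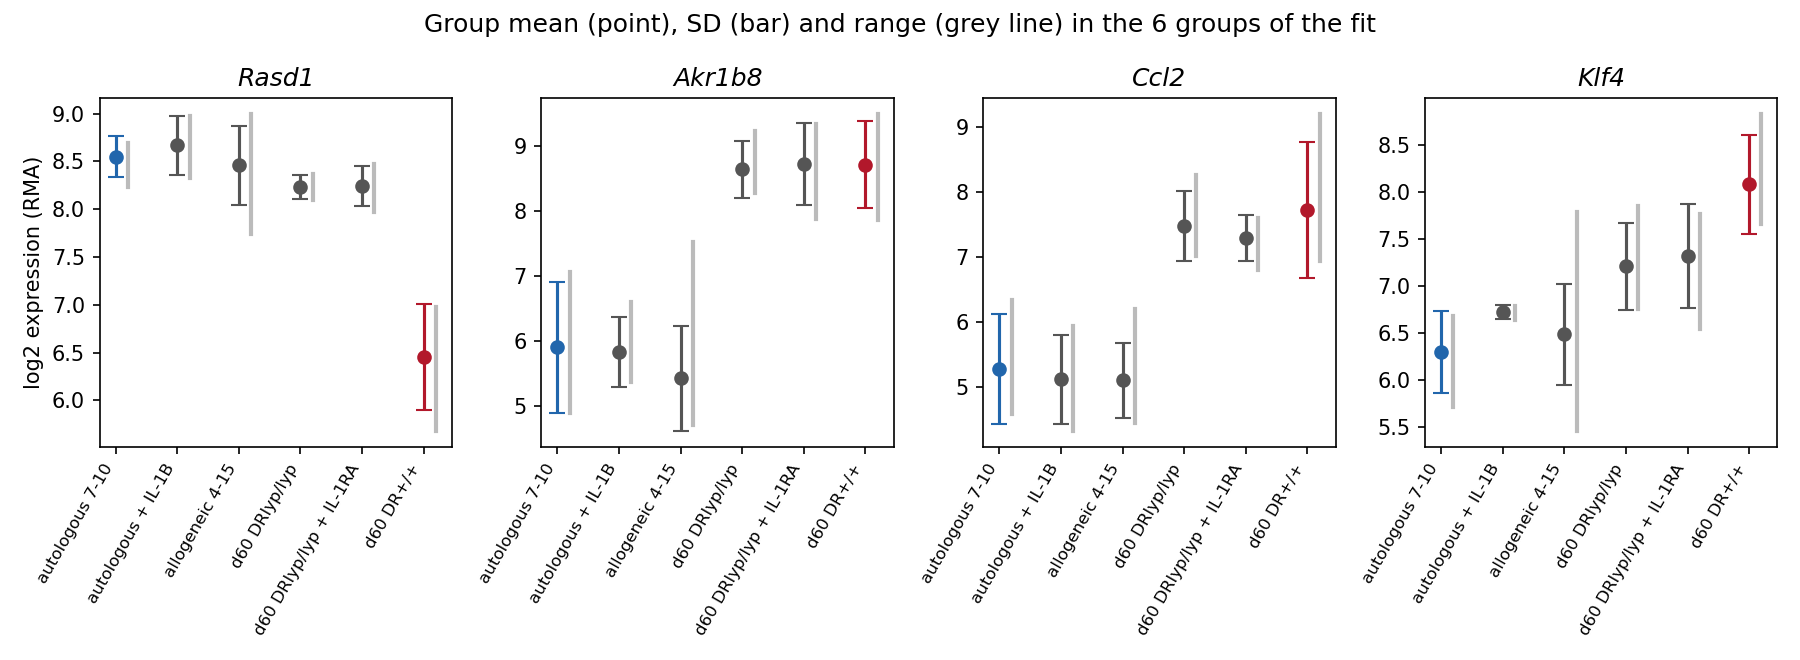
Log2 expression (vertical) of Rasd1, Akr1b8, Ccl2 and Klf4 in the 6 groups of the fit (horizontal), as group means (points) with SD (bars) and the range of single arrays (grey lines). Rasd1 is low in the DR+/+ group alone, with 6.45 against 8.24 to 8.67, while Akr1b8 and Ccl2 are high with all 3 BB rat sera.

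Serum of DR+/+ rats was also set against serum of the lymphopenic DRlyp/lyp line of the same age, in the same fit. Rasd1 was the 1 probe set called of 31042 (0.00322%), with 1544 at an unadjusted p under 0.05. It differed by -1.78 with DR+/+ serum (SE 0.25, adjusted p = 0.0015). With the replicate number as a block in these 2 groups alone, the difference was -1.78 (SE 0.22) and did not pass (adjusted p = 0.683). The block fit leaves fewer residual degrees of freedom than the 26 of the main fit, and the difference itself did not change. This fit called 0 probe sets (2249 at an unadjusted p under 0.05), as did the 2 groups alone without the block. Of other genes called against autologous serum, in the main fit Parm1 differed by -0.88, Klf4 by 0.87, Elk3 by 0.99 and Runx1 by 0.79, none of which passed. Akr1b8 (0.071), Ccl2 (0.25), Nqo1 (0.28), Cd14 (-0.035) and Ccr1 (-0.084) differed little in size between these sera and did not pass, which does not show that they are equal.

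Against serum of other BN rats, the 12 allogeneic cultures, 3422 probe sets were higher and 2647 lower with DR+/+ serum, together 19.6% of those tested. Centring each array on its median gave 4111 higher and 1640 lower. The total was 2797 with the 2 groups fitted alone, 2176 without DR+/+ replicate 1 and 2630 without DR+/+ replicate 3. This reference held 12 arrays and the autologous one 4, and both comparisons share the DR+/+ arrays, so they are not independent. Akr1b8 was higher by 3.29 (SE 0.39), Ccl2 by 2.62 (SE 0.35), Fn1 by 2.58, the inhibitory receptor gene Pilra by 2.36 and Mpeg1 by 2.23, and Rasd1 was lower (difference -2.01, adjusted p = 1.09e-06). The decreases next in size were Arhgap28 (-1.77), Rps6ka5 (-1.74), Sh3bgrl1 (-1.61) and Dennd2c (-1.55), which differed from autologous serum by -1.59, -0.99, -0.25 and -1.51 without passing. For Sh3bgrl1 DR+/+ replicate 4 read 4.94 and the other DR+/+ cultures 7.72 to 8.87.

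Some lists with no call against autologous serum held calls against allogeneic serum. Of 18 endoplasmic reticulum and amino acid stress genes 10 were higher (median 0.64), of 16 NF-kappaB genes 6 (median 0.74) and of 18 interferon response genes 5 (median 0.22), beside 15.0% of all genes called higher and an all-gene median of 0.029. Of 15 platelet genes 4 were lower (median -0.66), beside 1112 of all 14217 genes. Of 19 T-cell genes 2 were higher and 1 lower (median 0.24). Il1b was higher by 1.11 than with allogeneic serum (adjusted p = 0.0036) and by 0.60 than with autologous serum (adjusted p = 0.386). Whether the 2 references differ for these genes was not tested.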

How the data were processed

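Expression was measured on Affymetrix rat arrays, 1 per culture. The authors deposited log2 expression values per probe set. RMA (background correction, normalisation between arrays, probe summary) and Partek 6.2 are named in the submitters' processing notes, with no role for Partek. RMA values understate changes of weakly expressed genes. Of 31099 probe sets 57 controls were left out. The array annotation gave 1 symbol for 20826, several for 436 and none for 9780, and 14217 genes were each described by their brightest probe set (mean of 53 arrays).

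Group means of 6 groups (32 arrays of 1 cluster, 26 residual degrees of freedom) were fitted with limma 3.58.1 in R 4.3.3, with a variance trend and Benjamini-Hochberg adjustment over 31042 probe sets. Calls needed an adjusted p under 0.05, and SEs are limma's. The fit was tested on simulated data. The number of arrays limits the precision. Figures used Python 3.11.15 and matplotlib 3.10.9.

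Named genes were the 15 largest called increases and decreases, up to 4 called members of each list or, where none was called, the 2 with the smallest p, and the 5 largest in each direction of the other comparisons. Other genes named were chosen after their values were seen. The comparison, the members and the 31 lists were chosen with earlier results of these data known. Marker levels are log2 of summed linear values.

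Actin 3′ minus 5′ probe sets, a measure of RNA integrity, averaged 2.23 (SD 0.75; replicate 4 at 1.13, the lowest of the 32 arrays) in DR+/+ and 2.56 (SD 0.17) in autologous arrays (exact permutation test, two-sided p = 0.657, smallest possible 0.0286, n = 4 each). DR+/+ and DRlyp/lyp arrays share replicate numbers. Their deviations from group means correlated at 0.17 or more for each same number (mean 0.38, other numbers -0.12). The numbers may thus pair the samples, though no label says so. Centring each group on its mean pushes the value for other numbers below 0, so that value adds no separate support.

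Alternatives changed the samples fitted, normalisation, low-value filter, probe set choice, variance model, actin covariate, threshold, reference arrays and each single array.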

Additional observations from a re-analysis of the deposited data

Results flagged for a closer look

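Among the genes named, 140 groups of 4 arrays were checked for 1 array far from the other 3, and 17 held one. Chance gives about 1 in 20 such groups.

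DR+/+ replicate 4 was the array in 8 of them. It was highest for Elk3 (10.13), Fcgr1a (9.33), Pilra (9.32), Gimap1 (9.50), Xk (4.95) and Il1r1 (4.45), and lowest for the haem synthesis gene Alas2 (11.09, next 13.56) and the platelet gene Gp5 (5.26, next 6.74). DR+/+ replicate 3 was far from the others for the lymphocyte factors Tcf7 (10.21) and Eomes (7.52), and replicate 1 for Stat2 (10.76), a mediator of interferon signalling.

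Among the autologous cultures, replicate 7 was low for Fnip2 (5.02). Replicate 8 was low for Rasd1 (8.23) and high for Ier3 (6.77) and Pilra (6.62). Replicate 9 was low for Gzmb (5.15), and replicate 10 was low for Gimap1 (6.95). No cause was tested for these values.

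The level of Rasd1 differed between sera of the same age: it was lower with DR+/+ than with DRlyp/lyp serum (difference -1.78, adjusted p = 0.0015 by limma). This call was lost when these 2 groups were fitted alone, without or with the replicate number as a block.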

How the results depend on the processing

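Called probe sets of DR+/+ minus autologous serum numbered 84. They were 0 with the 2 groups fitted alone, 418 with all 53 arrays, 1415 with array weights and 16 at an adjusted p under 0.01. Single arrays left out gave 5 to 298. With all 10 autologous arrays as reference 93 were called, 24 of them shared. Counted as genes, 42 became 46 with 1 probe set per gene and adjustment over genes. Against allogeneic serum 6069 probe sets became 2797 (2 groups alone), 3742 (second quantile normalisation), 12844 (array weights) and 1576 (adjusted p under 0.01). They became 773 with a log2 difference of at least 1 and 227 with all 15 allogeneic arrays. Single arrays left out gave 2176 (without DR+/+ replicate 1) to 8967 (without DR+/+ replicate 4). Counted as genes, 3245 became 3598 with 1 probe set per gene and adjustment over genes. Against DRlyp/lyp serum 1 became 0 in the 2 groups alone (872 at an unadjusted p under 0.05), 0 with all 53 arrays (1864), 15 with array weights and 0 with the replicate block. No paired analysis was run, since DR+/+ and autologous replicates 7 to 10 share no numbers. DR+/+ replicate 3 and autologous replicate 9 correlated at 0.992, above the highest value within the DR+/+ (0.990) or autologous arrays (0.984). The labels do not tell if these cultures share a cell donor, and this was not tested.

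With the 2 groups alone the adjusted p was 0.151 for Rasd1, 0.251 for Akr1b8 and 0.333 for Ccl2, and these 3 passed all other alternatives run. With all 10 autologous arrays as reference, 13 of the 42 called genes stayed called. Abcg1, Ccr1, Dhx58, Egr1, Elk3, Fcgr1a, Fnip2, Hivep1, Mcpt1l1, Mdfic, Parm1, Pla2r1, Slc24a4 and Traf3 were among those that lost the call, with the sign kept. Uncalled genes changed sign with that reference: Il12b 0.018, Tcf7 -0.22, Gzmb 0.087, Alas2 0.33, Bbc3 -0.23, Hspd1 -0.019, Bag3 -0.018, Mcl1 -0.32, Casp8 -0.64, Gimap1 -0.12, Gimap7 -0.69 and Gata3 -0.30. With single arrays left out, Alas2 ran from -0.83 to 0.034 (without DR+/+ replicate 4) and Xk from -0.58 to 0.015 (without autologous replicate 7). The cause was not tested. Signal near background limits Pla2r1 and Dhx58.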
